A study of Mus musculus with 6 samples.

Results

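Sprouty and Spred proteins, the Pleckstrin homology-like protein Phlda1 and the ETS transcription factors Etv4, Etv5 and Ets2 belong to the transcriptional output of receptor tyrosine kinases and the Ras-ERK cascade. Sprouty proteins (Spry1, Spry2, Spry4) are membrane-associated inhibitors that blunt growth factor signaling to Ras and Raf, and Spred proteins (Spred1, Spred2, Spred3) bring neurofibromin to the membrane, where it switches Ras off. Etv4 and Etv5 are members of the PEA3 group of ETS factors and Ets2 is an ETS factor phosphorylated by ERK, so that the same pathway both induces and uses these genes, and fibroblasts are a classical setting in which growth factors switch them on.

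All probes whose platform gene symbol is one of 10 genes were taken, namely Spry1, Spry2, Spry4, Spred1, Spred2, Spred3, Phlda1, Etv4, Etv5 and Ets2. The annotation used here named 9 probes for 7 of these genes, out of 20308 probes tested and 10585 named genes. Spry1, Spry2 and Spred3 had no named probe among those tested and are not reported with values. The annotation covers only probes that passed the detection filter, so probes of these 3 genes below it would be unnamed here. Etv5 and Spred2 had 2 probes each, which share a gene and are not independent, and the other 5 genes had 1 probe each.

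The study exposed 3T3-CrT cells to 5 mM creatine monohydrate (Cr) in growth medium for 3 h and compared 3 treated wells with 3 untreated wells. These cells are mouse 3T3 Tet Off fibroblasts that stably express a rabbit creatine transporter (CrT) cDNA under G418 and puromycin, in both groups alike, and whether the line is a single clone is not given in the sources used here. Total RNA of each sample was hybridized to 1 array of the Illumina Mouse WG-6 v2 BeadChip. The purpose of the comparison was to find genes that respond to saturating Cr and could restrain its uptake.

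The arrays had a median signal of 152.2 to 161.3 arbitrary units with Cr and 156.5 to 166.9 in untreated controls, with no background subtracted. A probe counted as detected on an array where its detection p, which ranks it against negative control probes, was 0.05 or less, and this held for 17289 to 17700 probes per Cr array and 16396 to 17249 per untreated array. Of 12 fibroblast markers 9 were measured, among them Col1a1, Col1a2, Vim, S100a4 and Lox, whereas only 2 of 7 epithelial, 2 of 6 endothelial, 2 of 6 macrophage and 4 of 6 skeletal muscle markers passed the filter, with no endothelial or muscle marker detected on all 6 arrays. The macrophage marker Cd14 was detected on all 6 arrays, with signals of 770 to 1059, and so was the epithelial marker Krt8, with 202.8 to 234.3. No marker probe passed an adjusted p of 0.05. Normalized values below follow vsn, whose generalized log2 scale behaves as log2 for bright probes and shrinks the differences of dim ones, and log2 fold changes are Cr minus untreated from limma with Benjamini-Hochberg adjustment over all 20308 probes. The submitters' design text describes replicate wells, and the sources used here do not say that they were separate experiments, so p-values here reflect well-to-well spread, which may be technical, and 3 arrays per group limit the precision.

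None of the 9 member probes passed an adjusted p of 0.05 in either direction, against 0.0295% of all probes tested, 0.0246% lower and 0.00492% higher. None passed an unadjusted p of 0.05 either, against 5.04% of all probes, 2.6% lower and 2.45% higher. The adjusted p of the members lay between 0.984 and 0.997. Their log2 fold changes ran from -0.24 for Phlda1 to 0.021 for Spred1, with standard errors of 0.078 to 0.12. The median was -0.040, beside 0.0014 over all probes tested, and 7 of 9 were below 0, as were 49.4% of all probes. The 7 member probes detected on all 6 arrays had a median of -0.036. The Spry4 probe and 1 of the Spred2 probes passed the detection filter through an untreated array alone, so that the counts and the median over members support no statement on direction.

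**Figure D1:**
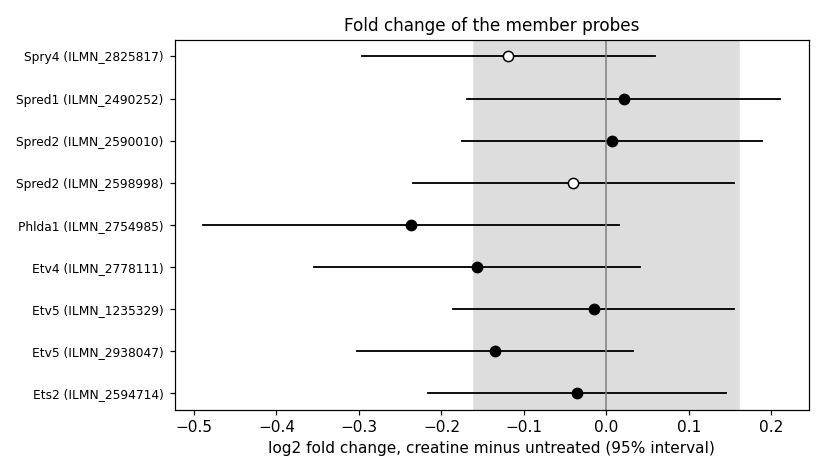
Log2 fold change (Cr minus untreated) of each member probe with its 95% confidence interval from limma, n = 3 arrays per group, filled symbols for probes detected on all 6 arrays and open symbols for the 2 that were not. The grey band holds the middle 90% of all 20308 probes, from -0.16 to 0.16. Every interval crosses 0, and no fold is read from the open symbols.

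Promoter windows of RefSeq genes on GRCm38.p6, 250 bases before to 50 bases after a transcription start, were at hand for 7 of the 10 genes, and for 4 of the 7 measured ones (Spred1, Spred2, Etv5 and Ets2). Etv5 has 2 windows, for 2 starts. The windows were searched on both strands for an ETS site (CCGGAAG), the shorter PEA3 site (AGGAAG), an AP-1 site (TGANTCA), a cyclic AMP response element (TGACGTCA) and the CArG box of serum response factor. The first 2 differ in the base before GGAAG, so that no stretch matches both on the same strand. The PEA3 letters stood in the Spred2 window 2 times, beginning 93 and 32 bases before the start, and 1 time in the window of the downstream Etv5 start, beginning at base 2 of the transcript. They occur in 35.4% of all 32851 windows, so that matches in some members are common. No searched window of a member held the ETS site, the AP-1 site, the response element or the CArG box, which 8.86%, 7.81%, 1.79% and 1.63% of all windows held. The windows of Etv5 and Spred2 are shown because these are the 2 genes with a pair of probes, and capitals mark the PEA3 letters (on the other strand where they read CTTCCT). The first is Etv5, downstream start, at chr16:22438319-22438618 on the minus strand, the second is Etv5, upstream start, at chr16:22439521-22439820 on the minus strand, and the third is Spred2 at chr11:19924192-19924491 on the plus strand.
Etv5 downstream start: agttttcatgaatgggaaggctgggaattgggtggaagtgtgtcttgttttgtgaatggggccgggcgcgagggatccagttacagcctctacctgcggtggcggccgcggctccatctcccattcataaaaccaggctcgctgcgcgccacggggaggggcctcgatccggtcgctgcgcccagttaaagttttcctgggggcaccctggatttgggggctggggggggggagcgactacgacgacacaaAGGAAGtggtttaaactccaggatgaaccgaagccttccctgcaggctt
Etv5 upstream start: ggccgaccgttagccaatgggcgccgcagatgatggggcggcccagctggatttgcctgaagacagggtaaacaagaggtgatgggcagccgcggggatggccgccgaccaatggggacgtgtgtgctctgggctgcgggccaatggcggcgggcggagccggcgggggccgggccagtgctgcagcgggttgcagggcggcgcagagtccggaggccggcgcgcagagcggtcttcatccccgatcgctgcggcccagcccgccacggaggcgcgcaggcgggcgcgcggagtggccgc
Spred2: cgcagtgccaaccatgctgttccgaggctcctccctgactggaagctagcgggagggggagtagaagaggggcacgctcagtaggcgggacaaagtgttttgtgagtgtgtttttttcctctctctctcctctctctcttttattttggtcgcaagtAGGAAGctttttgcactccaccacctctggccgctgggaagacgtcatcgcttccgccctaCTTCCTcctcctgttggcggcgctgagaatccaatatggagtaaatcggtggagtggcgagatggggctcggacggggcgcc

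Among the inhibitors, Spred1 and Spred2 showed no difference past the test. Spred1, whose loss in humans causes Legius syndrome, had signals of 1820, 2011 and 1771 with Cr and 1898, 1992 and 1529 in untreated controls. The groups overlapped throughout, and after normalization the means were 10.80 ± 0.11 with Cr and 10.78 ± 0.098 in untreated controls (SD, n = 3 each). This is 101% of untreated with a 95% confidence interval of 89.0 to 116 (log2 fold change 0.021, standard error 0.089, adjusted p = 0.997 from limma). Spred1 was the member with the highest log2 fold change.

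Spred2, on probe ILMN_2590010, had signals of 205.7, 191.4 and 200.9 with Cr and 207.8, 199.1 and 196.7 in untreated controls, and the groups overlapped. It stood at 100.5% of untreated (95% confidence interval 88.6 to 114, adjusted p = 0.997 from limma). The other Spred2 probe, ILMN_2598998, was dim, with signals of 149.5, 167.2 and 170.0 with Cr and 186.2, 167.7 and 157.6 in untreated controls. It was detected on untreated replicate 1 alone, with a detection p of 0.029, and on no Cr array, where the detection p was 0.074 to 0.24. Its bound was under 1, so no fold is given (adjusted p = 0.995 from limma).

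Spry4, an inhibitor of Ras activation by growth factor receptors, was near the detection limit. Its signals were 155.9, 165.5 and 160.4 with Cr and 184.8, 182.4 and 160.6 in untreated controls, so that 2 untreated arrays lay above all Cr arrays and the third lay among them. It was detected on untreated replicate 1 alone, where its detection p was 0.033. No fold is given, because the bound was under 1, and the adjusted p was 0.986 from limma. Without untreated replicate 1, neither Spry4 nor the dim Spred2 probe passed the detection filter, and both dropped out of the fit.

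**Figure D2:**
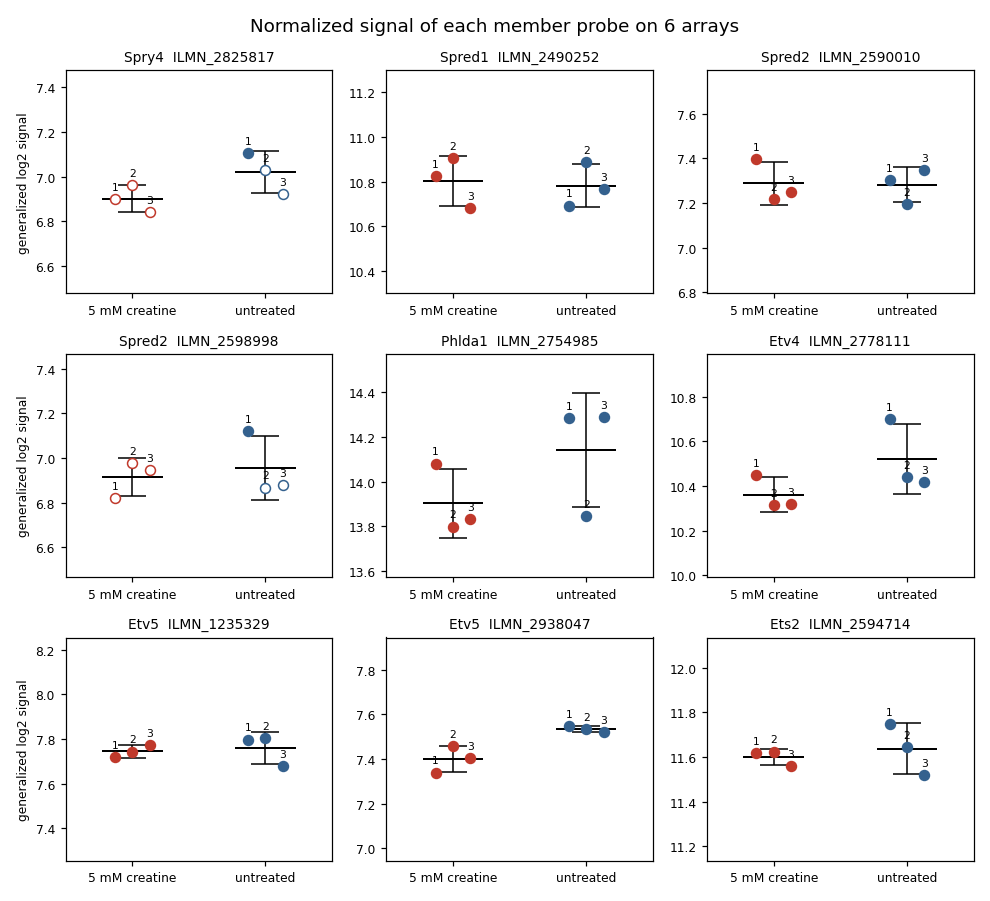
Generalized log2 signal of the 9 member probes on each array, with 5 mM Cr left and untreated controls right in every panel, numbers for replicates, bars for the mean ± SD (n = 3) and open symbols for arrays on which the probe was not detected. Every panel spans 1 unit on the log2 scale, and the groups are apart for Etv5 probe ILMN_2938047 alone, with 7.34 to 7.46 with Cr and 7.52 to 7.55 in untreated controls.

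Phlda1, a Pleckstrin homology-like domain protein induced by ERK activity, had the lowest log2 fold change and the lowest p of the members. Its signals were 17037, 14678 and 15369 with Cr and 22505, 15140 and 16918 in untreated controls. Normalized values were 14.08, 13.80 and 13.83 with Cr and 14.29, 13.85 and 14.29 in untreated controls, so that untreated replicate 2 lay among the Cr arrays while the other untreated arrays lay above them. Phlda1 stood at 84.9% of untreated with a 95% confidence interval of 71.3 to 101 (log2 fold change -0.24, standard error 0.12, unadjusted p = 0.0638, adjusted p = 0.984 from limma). A two-sided exact permutation test of this probe gave p = 0.2, where 0.1 is the smallest that 3 arrays against 3 allow. Its log2 fold change was -0.38 without untreated replicate 2 (unadjusted p = 0.00204, adjusted p = 0.459 from limma) and -0.16 without untreated replicate 3. It was -0.33 without Cr replicate 1 and -0.18 without Cr replicate 2, so that the size rests on which arrays are kept.

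Of the ETS factors, Etv4 and 1 of the 2 Etv5 probes had the lower values. Etv4, a PEA3-group activator, had signals of 1414, 1350 and 1387 with Cr and 1904, 1477 and 1212 in untreated controls. In these signals the Cr arrays lay close together and the untreated arrays spread on both sides of them. Normalized values were 10.45, 10.32 and 10.32 with Cr and 10.70, 10.44 and 10.42 in untreated controls, so that Cr replicate 1 lay among the untreated arrays and the other Cr arrays below them. The means were 10.36 ± 0.076 with Cr and 10.52 ± 0.16 in untreated controls (SD, n = 3 each), which is 89.7% of untreated (95% confidence interval 78.2 to 103, adjusted p = 0.986 from limma). The log2 fold change was -0.16 with all arrays and -0.067 without untreated replicate 1.

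Etv5, the close relative of Etv4, gave unequal values on its 2 probes. Probe ILMN_2938047 had signals of 199.0, 219.4 and 219.8 with Cr and 241.8, 239.9 and 214.6 in untreated controls, and normalized values of 7.34, 7.46 and 7.40 with Cr and 7.55, 7.53 and 7.52 in untreated controls. All Cr arrays were below all untreated arrays after normalization, though not in the raw signals. It was the 1 member probe of 9 whose groups did not overlap, against 10.7% of all probes tested in either direction, 5.15% lower and 5.59% higher with Cr. The level was 91.1% of untreated (95% confidence interval 81.1 to 102, adjusted p = 0.986 from limma), and the two-sided exact permutation p was 0.1, the smallest possible here. Probe ILMN_1235329 had signals of 247.4, 259.6 and 272.4 with Cr and 281.9, 279.7 and 232.5 in untreated controls, with groups that overlapped. It stood at 98.9% of untreated (95% confidence interval 87.9 to 111, adjusted p = 0.997 from limma). The difference between the 2 probes was not tested, and the transcript that each probe reads is not given in the sources used here.

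Ets2, which activates genes of matrix breakdown and growth, had signals of 3126, 3287 and 3214 with Cr and 3904, 3328 and 2533 in untreated controls. The Cr arrays again lay within the range of the untreated arrays. The level was 97.5% of untreated (95% confidence interval 86.1 to 110.5, adjusted p = 0.995 from limma).

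For the 7 probes detected on all 6 arrays, the lower ends of the 95% confidence intervals lay between 71.3% and 89.0% of untreated and the upper ends between 101% and 116%. Differences within a probe's interval were not excluded by its 3 arrays a group. The intervals are on the vsn scale, which shrinks the differences of dim probes. With neqc the log2 fold change of Etv5 probe ILMN_2938047 was -0.27, beside -0.13 in the reported fit. Etv5 probe ILMN_1235329 had -0.028 beside -0.016, and Spred2 probe ILMN_2590010 had 0.028 beside 0.0069. For these dim probes the intervals may understate the differences that were not excluded.

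The members also differed between arrays of the same group. Untreated replicate 1 had the highest normalized value of all 6 arrays for 5 of the 9 member probes, and for 23.7% of all probes tested. Spry4 and the dim Spred2 probe are among these 5 and passed the detection filter through that array alone. The medians of deviations below include them too, so neither these nor the count support a statement on the members. Untreated replicate 1 also received the lowest weight when limma estimated one for each array, 0.498. The weights were 0.98 to 1.44 for the Cr arrays and 0.885 and 1.445 for the other untreated arrays. Within the untreated group the members' deviation from the group mean had a median of 0.088 on replicate 1 and -0.076 on replicate 3, against 0.0053 and -0.0058 over all probes. Within the Cr group the corresponding medians of the members were -0.042 to 0.025. The fit without untreated replicate 1 called no member and gave a median log2 fold change of -0.025 over the 7 probes left, which had -0.036 with all arrays.

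The genes whose values followed Phlda1 most closely over the 6 arrays, among 12890 named probes detected on all of them, were Ddx21, which encodes an RNA helicase of the nucleolus (Pearson's r = 0.997), Ppfibp2 (0.992), Zxdc (0.989), Ttc14 (0.987) and Pabpn1, which encodes the nuclear poly(A)-binding protein (0.986). Their normalized values were highest on untreated replicates 1 and 3, followed by Cr replicate 1, as for Phlda1. Ddx21, for example, had 12.86, 12.71 and 12.71 with Cr and 12.96, 12.73 and 12.95 in untreated controls. The correlations are over 6 arrays that share the same normalization, and the 5 genes are the closest of many candidates, so that they carry no p. None of the 5 passed the test, with log2 fold changes of -0.11 to -0.19 (adjusted p = 0.986 from limma for each).

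**Figure D3:**
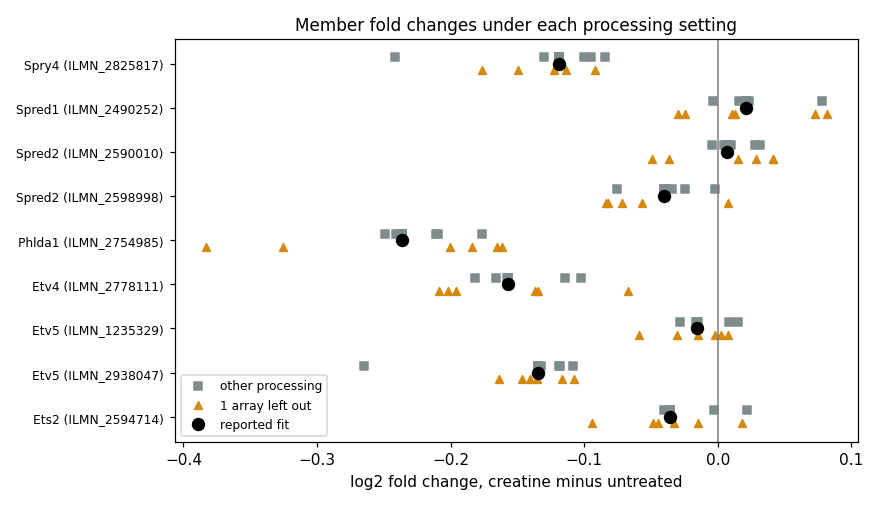
Log2 fold change (Cr minus untreated) of each member probe in the reported fit (circle), under other processing (squares) and with 1 array left out (triangles). Phlda1, Etv4 and Etv5 probe ILMN_2938047 lie below 0 at every setting that kept them. No fold is read from Spry4 or Spred2 probe ILMN_2598998, which passed the filter through an untreated array alone. Spred1, Spred2 probe ILMN_2590010, Etv5 probe ILMN_1235329 and Ets2 have values on both sides of 0.

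In the reported fit, other genes that ERK signaling induces included 1 called lower with Cr and several with low unadjusted p. Of 17 such genes 15 were measured, on 22 probes, with a median log2 fold change of -0.25. At an unadjusted p of 0.05, 13 of the 22 probes were lower and 1 was higher, where 2.6% of all probes were lower and 2.45% higher, and 1 probe passed the adjusted threshold. Among the 9 member probes both counts were 0. That probe was of Lif, a cytokine of the interleukin-6 family, which fell to 65.8% of untreated (adjusted p = 0.0396 from limma). A second Lif probe was at 71.5% (adjusted p = 0.19 from limma), and the third was detected on no Cr array (adjusted p = 0.948 from limma). The call was lost with neqc, with normexp and median scaling, and without Cr replicate 1 or 3 or untreated replicate 2 or 3, where no probe of the array was called. Ier3, an immediate early gene, was at 70.6% (adjusted p = 0.0566 from limma), and Errfi1, which encodes a feedback inhibitor of the EGF receptor, was at 73.1% (adjusted p = 0.0867 from limma). The paper, with its own processing of these arrays, lists both Lif and Ier3 among its significantly lower genes. Lif, Hbegf and Dusp6 each gave more than 1 of the 13 lower probes, and probes of the same gene are not independent. The third Lif probe is among the 13 and passed the detection filter through untreated arrays alone. These genes were listed with earlier results of the same arrays known, so their count is not independent evidence, and the difference between them and the members was not tested. Among the feedback phosphatases of the list, named after their values were seen, Dusp5 was at 74.9%, Dusp6 at 76.0%, 83.6% and 91.5% on its 3 probes and Dusp7 at 97.8%, with adjusted p of 0.21, 0.343, 0.884, 0.986 and 0.996 from limma.

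**Figure D4:**
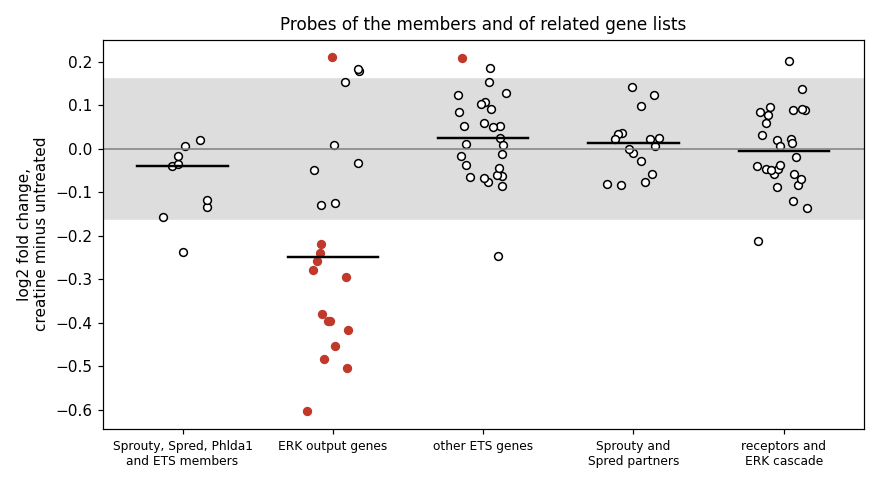
Log2 fold change (Cr minus untreated) of every probe of the members and of 4 related gene lists, with a line at each list's median and red symbols for an unadjusted p of 0.05 or less. The grey band holds the middle 90% of all probes, from -0.16 to 0.16. Red symbols below 0 appear only among the ERK output genes, 13 of 22, including a Lif probe that was detected on no Cr array.

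The lists of relatives and partners of the members had medians near 0. Of 18 other ETS genes 12 were measured, on 27 probes, with a median of 0.025 and none past the adjusted threshold. Etv1, the remaining PEA3-group factor, had a log2 fold change of 0.21 on its probe of lowest p and 0.091 and 0.025 on the others. The probe of lowest p had an unadjusted p of 0.0451 and an adjusted p of 0.963 from limma. On it every Cr array lay above every untreated array after normalization, though not in the raw signals. Such a separation after normalization, higher with Cr, held for 5.59% of all probes tested. Erf, which encodes an ETS repressor, had 0.19 on its probe of lowest p and 0.049 and -0.067 on the others. Elf2 had -0.25 on its probe of lowest p and -0.062 to 0.060 on the others. Of 13 proteins that bind or regulate Sprouty and Spred, 12 were measured on 16 probes, with a median of 0.014 and none at an unadjusted p of 0.05. The 3 of lowest p were Tesk1, a kinase that Sprouty binds, at 0.12, the ubiquitin ligase gene Siah2 at 0.14 and the adaptor gene Grb2 at -0.083. Of 19 receptors and members of the ERK cascade 12 were measured on 28 probes, with a median of -0.0058 and none at an unadjusted p of 0.05. The lowest p were those of a probe of the receptor Pdgfra at 0.20, the ERK-activating kinase Map2k1 at -0.21 and a probe of the Raf kinase Araf at -0.12 (adjusted p = 0.984, 0.986 and 0.986 from limma). The other Pdgfra probe had -0.018, and the other Araf probes had 0.090, 0.078 and -0.070. Spry3, the Sprouty gene outside the 10, had -0.048 and Phlda3, a relative of Phlda1, had 0.070 and 0.017 on its 2 probes.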

How the data were processed

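The data were 6 Illumina Mouse WG-6 v2 arrays, of which 3 held RNA of 3T3-CrT cells after 3 h in 5 mM Cr and 3 that of untreated cells. Groups and replicate numbers came from the sample titles, and columns were matched through the sample descriptions. The deposited signal intensity of 45281 probes is the authors' GenomeStudio export without background subtraction. The deposited detection p-value ranks a probe against 936 negative control probes of its array. The deposited processed values, used as an alternative, are on a generalized log2 scale after the authors' background correction, vsn and detection filter. They ranked probes exactly as each array's signals did.

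The authors' vsn step was rebuilt from the signals in R 4.3.3, as asinh with 1 offset and 1 scale for every array. Its parameters were estimated over all probes by likelihood, with trimming to the best-fitting quantile of 0.9 over 7 rounds. The filter kept probes whose detection p was at most 0.05 on any array. Groups were then compared with limma 3.58.1 (lmFit, eBayes, two-sided) and no covariate, and probes at an adjusted p of at most 0.05 were called. For a probe detected on no array of 1 group, only a bound was computed, in which that group takes, array by array, the larger of its own value and the lowest detected value. The code was tested on simulated arrays with known changes. Of the tested probes, 16925 carried 1 gene symbol, 7 several and 3376 none in the platform annotation.

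The 10 genes and the gene lists were chosen with earlier results of these data known. Named were all probes of the members, up to 3 genes of lowest p in each list, and the 5 genes closest to the member of lowest p. Alternatives were neqc (offset 16), the deposited values, log2 with quantile normalization, normexp (offset 50) with median scaling, no filter, detection on all 6 arrays, a detection p of 0.01 or less on 3 or more arrays, a trended robust variance, weights per array, a block for the replicate number, 1 probe per gene and each array left out with vsn and filter redone. Probe sequences and array positions were not used here. Promoters are RefSeq, GRCm38.p6. Plots were made in Python 3.11.15 with matplotlib 3.10.9.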

Additional observations from a re-analysis of the deposited data

How the results depend on the processing

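No member probe passed an adjusted p of 0.05 from limma under any of the 17 alternatives. At an unadjusted p of 0.05 the number of members lower was 0 in the reported fit and 1 with neqc (Etv5 probe ILMN_2938047), and 1 (Phlda1) with the deposited values, without a filter, with array weights or with the replicate number as a block, and it lay between 0 and 1 with single arrays left out. The median over members was -0.0045 with array weights and -0.075 with neqc, beside -0.040 in the reported fit, and ran from -0.094 to -0.025 with single arrays left out. Probes called over the whole array numbered 6 in the reported fit, 0 with neqc or with normexp and median scaling (1145 and 730 at an unadjusted p of 0.05), 12 with the deposited values and 12 with quantile normalization, 10 without a filter, 13 with a trended robust variance, 15 with array weights and 14 with the replicate block. With single arrays left out they numbered 0 to 14, at 0 without Cr replicate 1 or 3 or untreated replicate 2 or 3 (764 to 1491 at an unadjusted p of 0.05), 1 without Cr replicate 2 and 14 without untreated replicate 1. The cause of these differences was not tested.

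Directions turned for 5 of the 9 member probes. Of 145 member values under alternatives, 132 kept the direction and 13 turned, none of them called. Among the values that kept it, 14 were of Spry4 and 12 of Spred2 probe ILMN_2598998. Both probes passed the detection filter through an untreated array alone, so the count supports no statement on direction. Array weights gave -0.0035 for Spred1, -0.0045 for Spred2 probe ILMN_2590010 and 0.0087 for Etv5 probe ILMN_1235329, and normexp with median scaling gave 0.0154 for that Etv5 probe and 0.0221 for Ets2. With single arrays left out Spred1 ran from -0.030 to 0.082, Spred2 from -0.050 to 0.042 on probe ILMN_2590010 and from -0.084 to 0.0076 on probe ILMN_2598998 (fitted differences of a probe below detection on all Cr arrays, not folds), Etv5 probe ILMN_1235329 from -0.059 to 0.0076 and Ets2 from -0.094 to 0.018. Whether replicate numbers pair the samples is not settled here. The deviations of same-numbered arrays correlated at 0.24, 0.31 and -0.031. Those at replicates 1 and 2 were the highest between any Cr and untreated array, while Cr replicate 3 correlated best with untreated replicate 1. Under the replicate block 14 probes of the array were called, against 6 without it. The median of the members was -0.040 in both fits, because a block with 1 array of each group leaves the fold changes unchanged. No scaling moved the median of all probes by more than 0.041.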

Other observations

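Cyclin D1, Ccnd1, which drives entry into the cell cycle and is induced by ERK signaling, differed in sign from the other ERK output genes with low p. This gene was singled out after its values were seen. Its 3 probes had log2 fold changes of 0.21, 0.18 and 0.15 (adjusted p = 0.959, 0.986 and 0.986 from limma). After normalization the Cr arrays lay above all untreated arrays on the second of them alone, as they did for 5.59% of all probes tested. In the raw signals this was so on the first of them alone. The ERK inhibitor gene Il17rd, named for the same reason, had 0.18 (adjusted p = 0.986 from limma) and was detected on 2 of the 3 untreated arrays and on all 3 Cr arrays. Myc, another ERK target, had 0.0077 (adjusted p = 0.998 from limma).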
